A study of Arabidopsis thaliana with 4 samples.

Results

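The genes described here code for the enzymes that open the phenylpropanoid pathway and for those that first commit its product to lignin: phenylalanine ammonia-lyase (PAL1, PAL2, PAL3 and PAL4), cinnamate 4-hydroxylase (C4H), 4-coumarate:CoA ligase (4CL1, 4CL2 and 4CL3) and cinnamoyl-CoA reductase (CCR1 and CCR2). They were chosen by locus, with earlier results of these data known. They are 10 of the 25665 genes that the array's probes name, and all 10 could be measured. RNA came from whole Arabidopsis thaliana seedlings of ecotype Columbia-0, 14 days old and untreated, of 2 genotypes. The first, 35S:AtERF4-HA, carried ERF4, an ethylene response factor that represses transcription, with an HA tag. The control, 35S:NLS-GFP-HA, carried a green fluorescent protein with a nuclear localization signal and the same tag. In both the 35S promoter, which is active in most plant tissues, drove the transgene, so neither group was free of a transgene, and the labels do not say how many independent lines were used. Each of 4 biological replicates was 1 array of 2 colours, with AtERF4-HA and control RNA of seedlings grown on a shared plate in its 2 channels. AtERF4-HA RNA was labelled with Cy3 on arrays 1 and 2 and with Cy5 on arrays 3 and 4.

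PAL removes ammonia from phenylalanine to give cinnamate, C4H adds a hydroxyl group to give p-coumarate, and 4CL joins this acid to coenzyme A. The p-coumaroyl-CoA formed stands at a fork: chalcone synthase takes it into flavonoids, and the monolignol branch takes it towards lignin, the polymer that stiffens xylem walls. CCR reduces the CoA esters of that branch to aldehydes. In Arabidopsis PAL1, PAL2, 4CL1 and CCR1 are the isoforms best known for development and lignification, 4CL3 is tied to flavonoid synthesis, and CCR2 is known for its induction by pathogens.

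Spots of the gene probes were well above background in 74.8% to 78.7% of cases per channel, and array-to-array correlations of the log2 ratios over all genes lay between 0.70 and 0.87. ERF4 (AT3G15210) itself had log2 ratios of AtERF4-HA over control of 0.98, 0.87, 0.82 and 1.04 on arrays 1 to 4, a level 1.91-fold higher in AtERF4-HA seedlings (0.93 ± 0.07, adjusted p = 0.00284), in the direction that the dye labels give. In the authors' deposited table of natural log ratios, which by these dyes runs the other way, ERF4 stood at -0.8703, -0.7117, -0.7512 and -0.8529, although the sample titles put AtERF4-HA over control. Every direction here is that of the dye labels, and exchanged labels would turn all of them round. Where not said otherwise, values are log2 ratios of AtERF4-HA over control, ± is the standard error of the limma fit over 4 arrays, and p-values are Benjamini-Hochberg adjusted over 19494 genes with a threshold of 0.05. In RNA of whole seedlings, fewer cells of a type and less RNA per cell cannot be told apart.

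Of the 10 genes, 6 fell in AtERF4-HA seedlings, none rose and 4 did not pass the test. At least 1 gene of every enzymatic step was among those that fell: PAL1 and PAL4, C4H, 4CL1 and 4CL2, and CCR2. Of all genes tested 12.0% were lower by the same test and 13.6% higher, 25.6% in all. The log2 ratio was below 0 on all 4 arrays for 8 of the 10 genes, against 25.0% of all genes, the others being PAL3 and 4CL3. The median ratio of the 10 genes was -0.31, beside 0.01 for all genes tested. The calls depended on arrays 1 and 2. Without array 1 or without array 2, 0 of the 10 genes passed in limma, while 6 had an unadjusted p under 0.05 each time. Without array 3 all 6 passed, and without array 4 there were 4, since PAL4 (adjusted p = 0.054) and C4H (adjusted p = 0.064) no longer did. Among all genes tested, 4984 passed with the 4 arrays, 681 without array 1 and 658 without array 2.

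**Figure D1:**
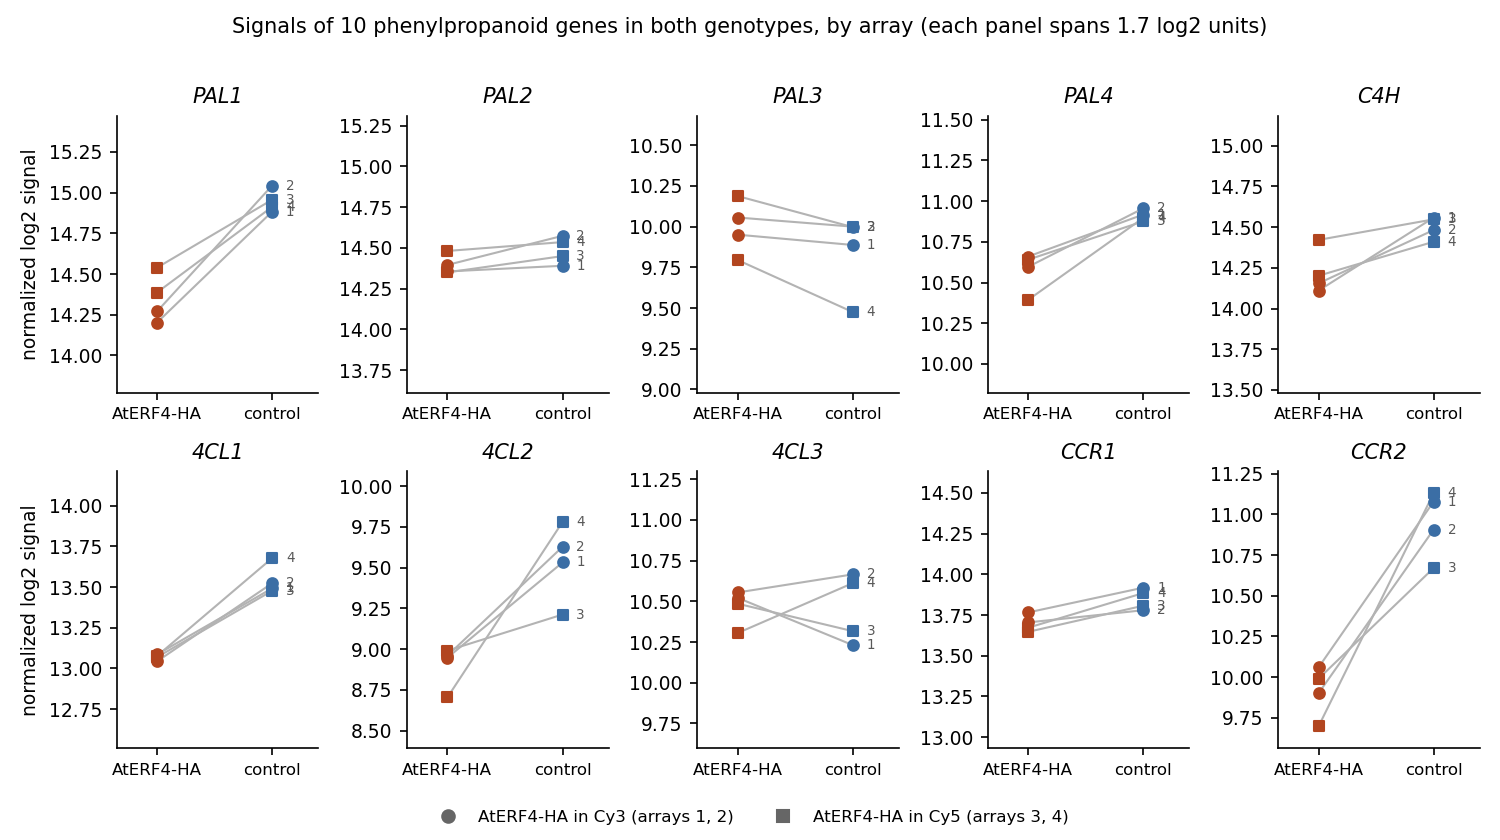
Normalized log2 signal of each gene in AtERF4-HA (left, red) and control (right, blue) seedlings, with lines joining the 2 channels of 1 array, numbered 1 to 4. Circles are arrays with AtERF4-HA in Cy3 and squares those with it in Cy5; each panel spans 1.7 log2 units, and panels are not to be compared in height because each gene has its own probe. PAL1, PAL4, 4CL1, 4CL2, CCR1 and CCR2 have all AtERF4-HA points below all control points.

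PAL1 (AT2G37040) showed the clearest change of the first step. Its normalized log2 signals were 14.20, 14.27, 14.54 and 14.39 in AtERF4-HA seedlings on arrays 1 to 4, against 14.88, 15.04, 14.96 and 14.91 in control seedlings. All AtERF4-HA signals thus lay below all control signals, with the AtERF4-HA signal nearest to them on array 3. PAL1 fell by 0.60 ± 0.06 on the log2 scale, a 1.52-fold lower level (adjusted p = 0.00462). The mean ratio was -0.73 on the arrays with AtERF4-HA in Cy3 and -0.47 on those with it in Cy5. Before any normalization of this work, the authors' deposited natural log ratios of PAL1, control over AtERF4-HA, were 0.3988, 0.4396, 0.3001 and 0.3523.

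PAL2 (AT3G53260), which acts beside PAL1 in development, did not pass. It had signals of 14.36, 14.40, 14.35 and 14.48 in AtERF4-HA seedlings and 14.39, 14.57, 14.45 and 14.54 in control seedlings, and the 2 groups overlapped. Its ratio was -0.09 ± 0.06 (95% interval -0.24 to 0.06, adjusted p = 0.269), so that a decrease of the size seen for PAL1 lay outside the interval.

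PAL4 (AT3G10340) had signals of 10.66, 10.60, 10.64 and 10.39 in AtERF4-HA seedlings, against 10.92, 10.96, 10.88 and 10.90 in control seedlings. The groups did not overlap, and array 4 had the widest gap. PAL4 fell by 0.34 ± 0.07, a 1.27-fold lower level (adjusted p = 0.028). Under median centring in place of loess its ratio was -0.21 and did not pass (adjusted p = 0.33). PAL3 (AT5G04230), an isoform of little known activity, was the only one of the 4 PAL genes with a ratio above 0 on every array, at 0.06, 0.06, 0.19 and 0.32. Its signals overlapped between the genotypes, at 9.95, 10.06, 10.19 and 9.79 in AtERF4-HA seedlings and 9.89 on array 1, just under 10 on arrays 2 and 3 and 9.47 on array 4 in control seedlings, and its ratio of 0.16 ± 0.06 did not pass (adjusted p = 0.098). In the authors' deposited table, turned to the same direction and put on the log2 scale, PAL3 did pass, at 0.35 (adjusted p = 0.017), beside a median of 0.16 for all genes there.

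C4H (AT2G30490) is the single gene of its step in Arabidopsis. It had signals of 14.11, 14.15, 14.42 and 14.20 in AtERF4-HA seedlings, against 14.56, 14.48, 14.55 and 14.41 in control seedlings. The groups overlapped, the AtERF4-HA signal of array 3 being above the control signal of array 4, but on each array the AtERF4-HA channel was the lower. C4H fell by 0.28 ± 0.06, a 1.21-fold lower level (adjusted p = 0.028). As for PAL1, the ratio was further from 0 with AtERF4-HA in Cy3 (mean -0.39) than in Cy5 (mean -0.17). Under median centring in place of loess the ratio was -0.09 and did not pass, so this call depended on the normalization.

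Of the 3 4CL genes, 4CL1 and 4CL2 passed and 4CL3 did not; the differences between them are given with the isoform pairs. 4CL1 (AT1G51680), the main ligase of lignification, had signals of 13.09, 13.04, 13.07 and 13.08 in AtERF4-HA seedlings, against 13.49, 13.52, 13.48 and 13.68 in control seedlings. The AtERF4-HA signals lay within a narrow band below all control signals. 4CL1 fell by 0.47 ± 0.06, a 1.39-fold lower level (adjusted p = 0.00952). Under median centring its ratio was -0.31 and did not pass (adjusted p = 0.127). A further probe for 4CL1 was above background on 0 of the 4 arrays in either channel and was not used.

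4CL2 (AT3G21240) was measured nearer to background, with signals of 8.95, 8.96, 8.99 and 8.70 in AtERF4-HA seedlings and 9.53, 9.63, 9.21 and 9.78 in control seedlings. The groups did not overlap, though the gap on array 3 was small and that on array 4 wide, with ratios of -0.22 and -1.08. 4CL2 fell by 0.64 ± 0.15, a 1.56-fold lower level (adjusted p = 0.0386). With a normexp offset of 16 its ratio was -0.69 and missed the threshold (adjusted p = 0.055), and with background-subtracted signals it reached -1.05. By the RefSeq gene order, 4CL2 lies next to 4CL5 (AT3G21230), a further ligase gene, which also fell, by 0.32 ± 0.06 (adjusted p = 0.0216). 4CL3 (AT1G65060), the isoform tied to flavonoids, had signals of 10.52, 10.55, 10.49 and 10.31 in AtERF4-HA seedlings and 10.23, 10.67, 10.32 and 10.61 in control seedlings. They overlapped, its ratios were above 0 on arrays 1 and 3 and below 0 on arrays 2 and 4, and the fit gave 0.01 ± 0.11 (95% interval -0.28 to 0.30, adjusted p = 0.952).

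CCR2 (AT1G80820) had the widest difference of the 10 genes. Its scanner signals before normalization were 612.5, 598, 1109 and 993 for AtERF4-HA RNA and 3685, 2287, 1292 and 1402 for control RNA, on local backgrounds near 60, with the dyes exchanged between arrays 1 and 2 and arrays 3 and 4. After normalization the log2 signals were 10.06, 9.90, 9.99 and 9.70 in AtERF4-HA seedlings, against 11.08, 10.91, 10.67 and 11.13 in control seedlings. There was no overlap, and the smallest gap was again on array 3. CCR2 fell by 1.03 ± 0.13, a 2.05-fold lower level (adjusted p = 0.00927), and the 2 dye orientations gave -1.01 with AtERF4-HA in Cy3 and -1.06 in Cy5. The authors' deposited natural log ratios, control over AtERF4-HA, were 0.7465, 0.6715, 0.7674 and 0.9634 for CCR2.

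CCR1 (AT1G15950), the reductase of developmental lignin, had signals of 13.77, 13.70, 13.65 and 13.67 in AtERF4-HA seedlings and 13.92, 13.78, 13.81 and 13.88 in control seedlings. The groups did not overlap, by a margin of less than the spread within either, and the ratio of -0.15 ± 0.05 did not pass (95% interval, before adjustment, -0.29 to -0.01, adjusted p = 0.10). CCR1 passed in 1 other processing, without background correction (-0.17, adjusted p = 0.048), and had a ratio of 0.02 under median centring. Counting CCR1, 6 of the 10 genes had non-overlapping signals with AtERF4-HA lower, where 16.4% of all genes tested did; none had AtERF4-HA higher without overlap, where 17.1% did.

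**Figure D2:**
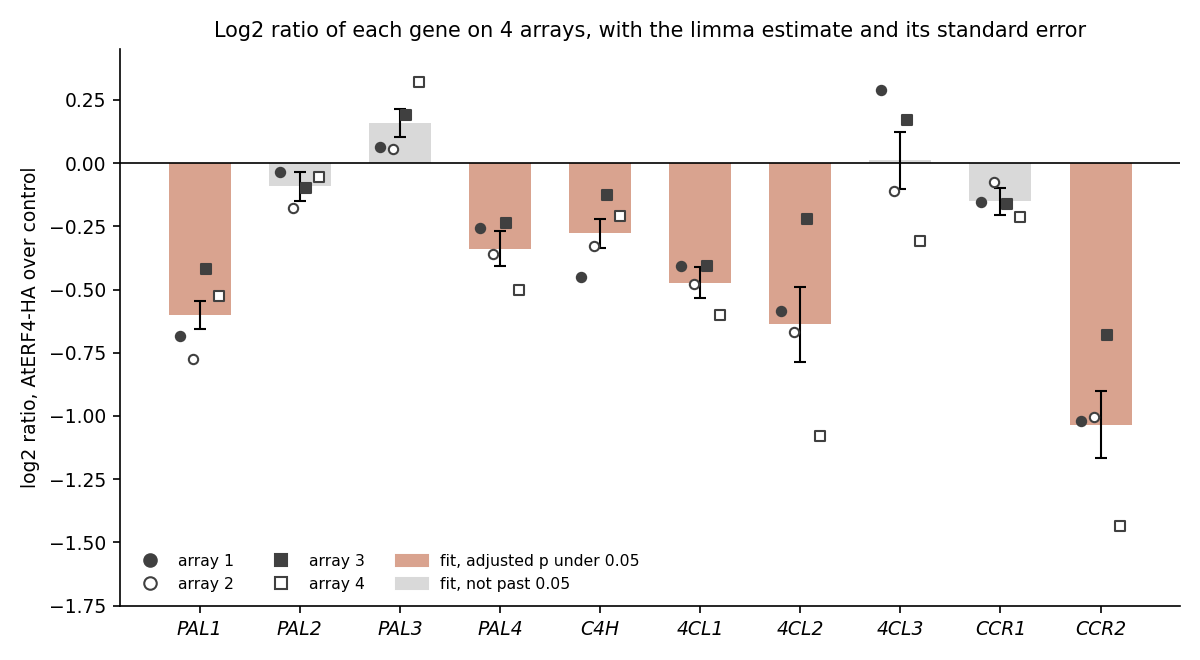
Log2 ratio of AtERF4-HA over control for the 10 genes. Bars are the limma estimates with their standard errors (red bars have an adjusted p under 0.05, grey bars do not) and symbols are the 4 arrays; CCR2 reaches -1.03 and PAL1 -0.60, while PAL2, PAL3, 4CL3 and CCR1 lie within 0.16 of 0.

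Isoforms of the same step were then set against each other within each array, in 6 pairs. PAL1 was further down than PAL2 on all 4 arrays, by a mean difference in log2 ratio of -0.51 (SD 0.15, n = 4), than PAL3 by -0.76 (SD 0.11) and than PAL4 by -0.26 (SD 0.19). CCR2 was further down than CCR1 on all 4 arrays, by -0.88 (SD 0.29), and 4CL3 lay above 4CL1 on all 4, by 0.48 (SD 0.19). For each of these 5 pairs the two-sided exact sign-flip permutation test gave the smallest p that 4 arrays allow, 2 of 16 sign patterns being as extreme, and 0.15 after Benjamini-Hochberg adjustment over the 6 pairs. With 4 arrays this test could not reach the threshold. 4CL1 minus 4CL2 was 0.16 (SD 0.27) with 1 array of the opposite sign (exact permutation p = 0.375). Whether probes of these related genes also bind each other's transcripts was not tested.

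The genes whose 4 array ratios were closest to those of CCR2 were AT4G14746, AT4G04960 and WRKY25 (AT2G30250), a WRKY transcription factor. Likeness was taken as the Euclidean distance over the 4 log2 ratios among all genes tested, and was 0.12, 0.15 and 0.16. WRKY25 had ratios between -1.28 on array 4 and -0.68 on array 3, beside -1.43 and -0.68 on the same arrays for CCR2.

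The other genes of the pathway, from phenylalanine supply to lignin, were followed together with tissue markers. These lists held 103 genes in all, of which 98 were tested, 15 rose and 14 fell. Of all genes tested 13.6% were higher and 12.0% lower. The xylem, root and leaf marker lists gave 1, 3 and 3 of the genes that rose and none of those that fell. In each list the genes past the threshold with the largest changes are given, and any further gene was named after its values were seen. Of 19 genes of the shikimate pathway and phenylalanine synthesis, which feeds PAL, 3 fell, 1 rose and 15 did not pass, with a median of -0.02. None passed in limma without array 1 or array 2, where 5 had an unadjusted p under 0.05 each time. Arogenate dehydratase ADT4 (AT3G44720), of the last step to phenylalanine, fell by 0.80 ± 0.07 (adjusted p = 0.00397). DHS3 (AT1G22410), a synthase of the first shikimate step, fell by 0.54 ± 0.06 and chorismate synthase CS (AT1G48850) by 0.37 ± 0.06. The gene that rose was the aminotransferase PAT (AT2G22250), at 0.32 ± 0.06. The other 5 arogenate dehydratase genes had ratios between -0.09 and 0.17 and did not pass.

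In the list of later monolignol steps, of 12 genes tested 7 fell, 1 rose and 4 did not pass, with a median of -0.32. The shares over all genes tested were 12.0% lower and 13.6% higher. Among the 7 was 4CL5, given above beside 4CL2, which is a ligase gene and not of a later step. This list had 2 genes lower without array 1, 3 without array 2 and 3 under median centring. Caffeoyl shikimate esterase CSE (AT1G52760) had ratios of -0.84, -0.93, -0.80 and -1.08 on arrays 1 to 4 and fell by 0.91 ± 0.07 (1.88-fold, adjusted p = 0.00318). CAD5 (AT4G34230), a cinnamyl alcohol dehydrogenase that makes the alcohols of lignin, had -0.70, -0.87, -1.01 and -0.91 and fell by 0.87 ± 0.06 (1.83-fold, adjusted p = 0.00284). The caffeate O-methyltransferase COMT1 (AT5G54160) fell by 0.80 ± 0.07 (1.74-fold, adjusted p = 0.00463). The array ratios of these 3 genes were all below 0, and CSE and CAD5 passed in all 13 other processings. The methyltransferase CCOAOMT1 (AT4G34050) fell by 0.50 ± 0.06, and ATR1 (AT4G24520) and ATR2 (AT4G30210), reductases that pass electrons to C4H and other cytochromes P450, fell by 0.32 ± 0.06 and 0.39 ± 0.08. HCT (AT5G48930), which forms the shikimate ester, was at 0.02 ± 0.07, C3H1 (AT2G40890), the hydroxylase of that ester, at -0.21 ± 0.05 (adjusted p = 0.052), the ferulate 5-hydroxylase FAH1 (AT4G36220) at -0.11 ± 0.06 and CAD4 (AT3G19450) at -0.01 ± 0.06, and none of these passed. The gene that rose was CCOAOMT7 (AT4G26220), at 0.62 ± 0.15 (adjusted p = 0.0392).

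**Figure D3:**
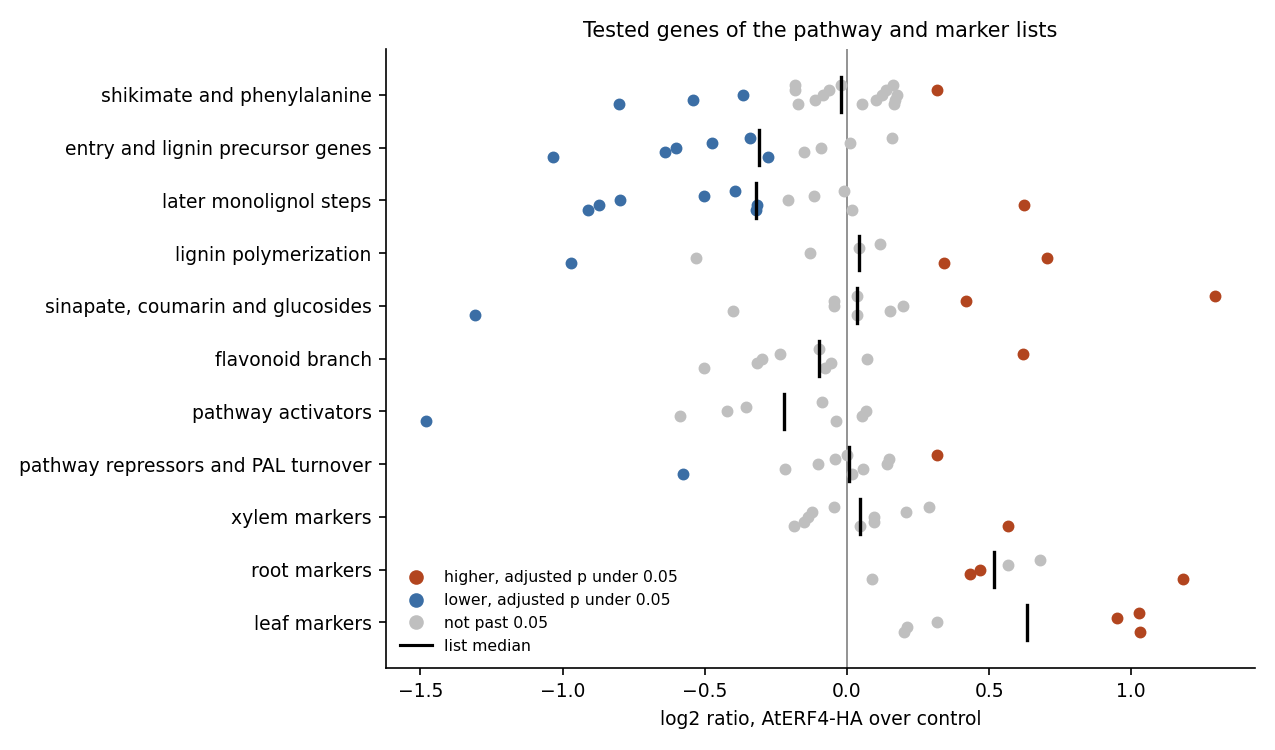
Log2 ratio of AtERF4-HA over control of each tested gene, by list, with the list median as a vertical bar. Red points are genes higher and blue points genes lower at an adjusted p under 0.05, grey points did not pass; the entry genes (median -0.31) and the later monolignol steps (median -0.32) have most of their points left of 0, while the root and leaf marker medians are 0.52 and 0.63.

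Lists beyond the monolignols held changes in both directions, where 13.6% of all genes tested were higher and 12.0% lower. Of 7 laccases and peroxidases that join monolignols into lignin, LAC11 (AT5G03260) rose by 0.70 ± 0.08 and PRX72 (AT5G66390) by 0.34 ± 0.07. PRX52 (AT5G05340) was called lower, but its AtERF4-HA signal was above background on 1 of 4 arrays and it entered the test through the control channel. Its log2 ratio lay between -3.66 and -0.97 with the background handling, so no fold is given. Without array 1 LAC11 alone passed, and without array 2 none did in limma (3 at an unadjusted p under 0.05). The 10 genes of sinapate esters, coumarins and monolignol glucosides had 2 that rose and 1 that fell, and 1, UGT72E2, that passed without array 1 or array 2. UGT72E2 (AT5G66690), which attaches glucose to monolignols, was 2.45-fold higher (adjusted p = 0.00254), with ratios of 1.76, 1.66, 0.67 and 1.09. BGLU45 (AT1G61810), a glucosidase that can release monolignols, fell by 1.31 ± 0.22 (2.48-fold, adjusted p = 0.017). Its log2 ratio lay between -3.06 and -1.31 with the background handling, so the fold depends on that choice. On array 3 the ratio was -0.48, with the other arrays between -1.78 and -1.46. UGT72E1 (AT3G50740) was called at 0.42 ± 0.06 only with the dye term: its ratios were 1.04 and 0.92 on arrays 1 and 2 but -0.11 and -0.16 on arrays 3 and 4, and without that term its adjusted p was 0.23.

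On the flavonoid side of the fork the median was -0.10. There 1 of 9 genes rose (13.6% of all genes tested did), none fell (12.0% of all did) and 8 did not pass in limma. Without array 3 that count was 1 that rose and 4 that fell, without background correction 1 and 3, and without array 1 or array 2 none passed in limma (1 at an unadjusted p under 0.05). The gene that rose was UGT78D1 (AT1G30530), a flavonol rhamnosyltransferase, at 0.62 ± 0.06 (adjusted p = 0.0054). Chalcone synthase CHS (AT5G13930), which competes for the product of 4CL, had ratios of 0.09, -0.18, -0.17 and -0.69 and did not pass (-0.24 ± 0.11, adjusted p = 0.162).

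Of 13 transcriptional activators of the pathway, 8 were tested, and MYB75 (AT1G56650), an activator of anthocyanin synthesis known also as PAP1, was the one that passed. The count depended on the processing: 4 were lower without array 3, without background correction, with background-subtracted signals or with the processed signals, and 3 without the dye term, under median centring or in the value table, with 1 or 2 higher in the background-subtracted, processed or value table signals. MYB75 was called in all of these. It had ratios of -1.76, -1.61, -1.14 and -1.41 and fell by 1.48 ± 0.07 (2.79-fold, adjusted p = 0.00153). The lignin activators MYB85 (AT4G22680) and MYB63 (AT1G79180) had ratios below 0 on every array but did not pass, at -0.59 ± 0.16 (adjusted p = 0.055) and -0.42 ± 0.13 (adjusted p = 0.069). The 5 activators not tested, NST1, NST2, SND1, MYB11 and MYB90, did not pass the filter on dim probes. Among 10 repressors of the pathway and proteins that mark PAL for breakdown, MYB7 (AT2G16720), a repressor, fell by 0.58 ± 0.07, KNAT7 (AT1G62990), a homeodomain factor of secondary walls, rose by 0.32 ± 0.05, and 8 did not pass. In limma none passed without array 1 or array 2 (2 at an unadjusted p under 0.05). With all arrays, 13.6% of all genes tested were higher and 12.0% lower, beside the counts of both lists.

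Marker genes of tissues moved with the comparison to different extents, where 13.6% of all genes tested were higher and 12.0% lower. Of 11 markers of xylem, where lignin is laid down, 1 rose, none fell and 10 did not pass in limma, with a median of 0.05. The count was 4 higher and 2 lower without background correction, 5 higher in the value table, 2 higher and 1 lower without array 3, 2 higher without array 4, and 0 without array 1 or array 2 (1 at an unadjusted p under 0.05). XCP1 (AT4G35350), a protease of xylem vessels, was the one that rose (0.57 ± 0.07, adjusted p = 0.00978), and the cellulose synthases of secondary walls CESA4, CESA7 and CESA8 had ratios of -0.19, -0.14 and -0.05 and did not pass. The summed signal of the xylem list was 11026 to 14679 in AtERF4-HA seedlings and 10739 to 11932 in control seedlings. Of 6 leaf markers 3 rose, none fell and their median was 0.63. The light-harvesting and photosystem genes LHCA1 (1.03 ± 0.06), PSBQ2 (1.03 ± 0.06) and LHCB4.2 (0.95 ± 0.06) were those that rose, and the summed leaf signal was 445157 to 509175 in AtERF4-HA seedlings, against 256510 to 295459 in control seedlings. Of 6 root markers 3 rose, none fell and their median was 0.52, with TIP2;3 at 1.18 ± 0.09, CASP1 at 0.47 ± 0.08 and COBL9 at 0.43 ± 0.07. NRT2.1, at 0.57 and not past the threshold, was above background on 0 of 4 control arrays. It entered the test, and with it this median and the summed signal, only through the AtERF4-HA channel. The root list had 1 gene higher without array 1 or array 2 and 5 without array 3. It also had 5 higher without background correction, with background-subtracted or processed signals, under median centring and in the value table. The summed root signal was 46390 to 69768 in AtERF4-HA seedlings and 44291 to 56801 in control seedlings. PYK10, which is in this sum, had ratios of 0.65 and 0.47 on arrays 1 and 2 but -0.44 and -0.31 on arrays 3 and 4. Its part in the sum was not tested. The part of these tissue markers in the lower PAL1, PAL4, C4H, 4CL1, 4CL2 and CCR2 was not tested.

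Under other processings of the same arrays, the signs of PAL1, PAL4, C4H, 4CL1, 4CL2 and CCR2 were negative in all 13 alternatives, but the number of calls changed. Median centring in place of loess left 3 of the 10 genes called, PAL1 (-0.41), 4CL2 (-0.58) and CCR2 (-0.92). It put the median of all genes tested at 0.11, and at 0.19 among the brightest 10% of genes, to which PAL1, PAL2, C4H, 4CL1 and CCR1 belong. With loess that median was 0.01. The standard error under median centring was 0.1494 for each of the 10 genes, and also for ERF4, CSE, CAD5 and MYB75. It thus did not follow the spread of the single gene. With loess it was 0.05 (CCR1) to 0.15 (4CL2). The 2 counts of calls thus differed in standard errors as well as in ratios. PAL2 and CCR1 had ratios of 0.09 and 0.02 under median centring, above 0 but below the median of all genes.

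**Figure D4:**
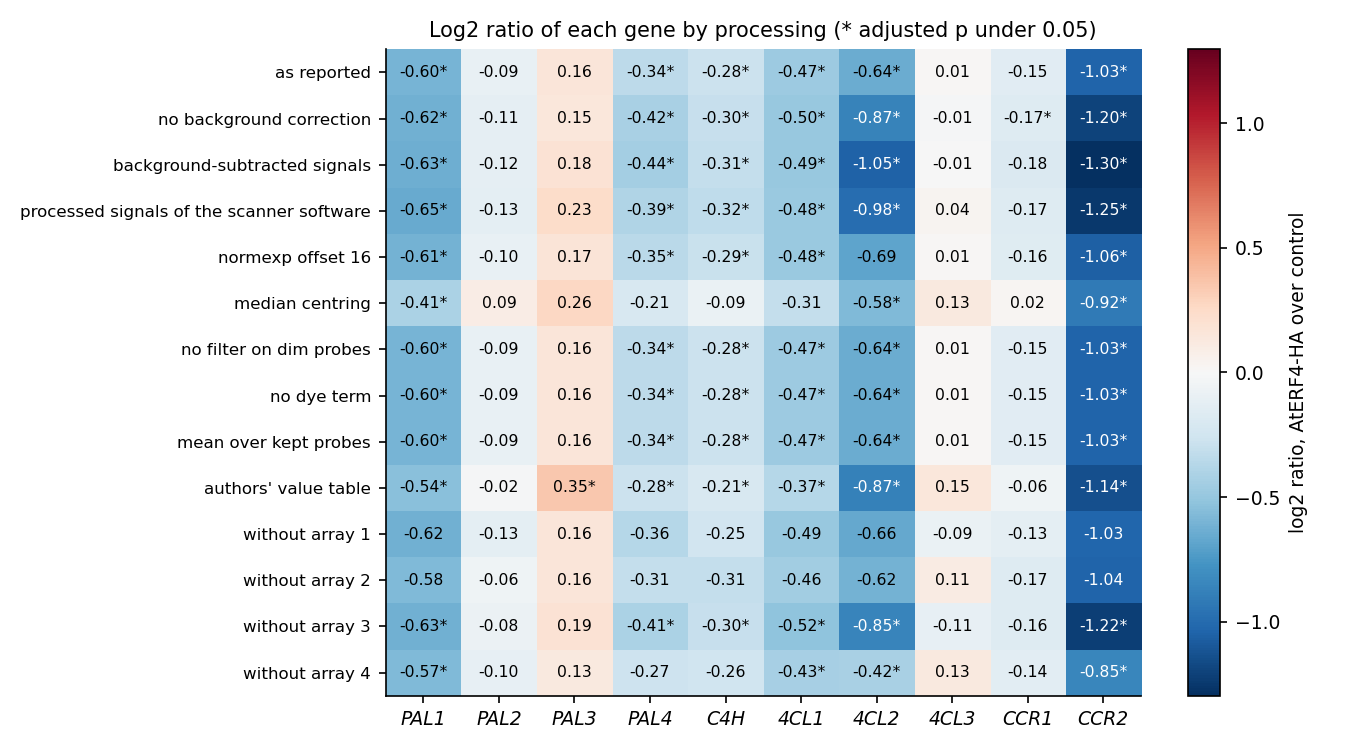
Log2 ratio of AtERF4-HA over control of the 10 genes (columns) in the processing reported and 13 alternatives (rows), with an asterisk where the adjusted p is under 0.05. PAL1 and CCR2 keep asterisks in all rows but those without array 1 or array 2, in which none of the 10 genes has one.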

How the data were processed

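The authors deposited scanner files of spot intensity (green and red medians, local backgrounds, background-subtracted and processed signals) and log10 ratios of red over green, which come from Agilent Feature Extraction (version 9.1.3.1 in the submitters' processing notes) per the file headers. The deposited value table holds natural log ratios, read from slopes of 0.693 or -0.693 against log2 of red over green. Its making is not described in the labels. Its column medians were -0.22, -0.05, -0.14 and -0.08, so it was not centred on 0, and by the dyes it runs control over AtERF4-HA.

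Median signals (the design had not fixed mean or median) were background-corrected with normexp (offset 50) and normalized within arrays by loess in limma 3.58.1 under R 4.3.3, with control spots at weight 0. Flagged spots were left out, which dropped an array for 39 genes; of the genes listed only MED5A (array 2) was among them. Of 37478 probes, 26236 had a locus, for 25665 genes, and 25449 were found in the RefSeq table of TAIR10.1. Probes had to be well above background in every array of either genotype, and the brightest stood for its gene. Per-genotype signals were put on 1 scale with Aquantile normalization. They served for display, for the overlap between genotypes and for the summed marker signals. The overlaps and sums were not run under the alternatives. Genes were fitted with genotype and dye terms (lmFit and eBayes, with 2 residual and 2.79 prior degrees of freedom), and the pipeline was tested on simulated data. There 28 of 100 genes changed by 0.5 on the log2 scale passed, and 67 of 100 changed by 1. Far fewer genes were changed in the simulation than were called in the arrays, so these shares need not hold for the arrays. The 4 arrays, whose number limits the precision, shared 1 slide and 1 scan, so these could not be tested as batches.

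The 10 genes and the 10 lists beside them were chosen with earlier results of these data known. Named are these genes, ERF4, up to 3 called genes of each list with the largest absolute ratio (the 2 largest where none is called), and the 3 genes most like the member with the largest ratio. Alternatives were other background corrections, offset, normalization, filter, dye term and probe rule, the value table, and leaving out each array. A planned description of promoter motifs was not made, since no promoter sequences were at hand, and no coordinates are printed because no source used here names a build for the array.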

Additional observations from a re-analysis of the deposited data

Results flagged for a closer look

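In 3 of the 37 genes examined for an array standing apart from the other 3, by Dixon's test of the gap over the range, such an array was found; chance alone flags about 1 group in 20. ADT4 had a log2 ratio of -0.56 on array 3, with the other arrays between -0.90 and -0.85. CS had -0.23 on array 3, with the others between -0.42 and -0.41. LAC11 had 0.96 on array 2, with the others between 0.59 and 0.64. None of PAL1 to PAL4, C4H, 4CL1 to 4CL3, CCR1 and CCR2 had such an array.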

How the results depend on the processing

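Over all genes 4984 were called (2654 higher, 2330 lower). The count was 9121 without background correction (4195 higher, 4926 lower), 8544 with background-subtracted signals, 8973 with the scanner software's processed signals and 10956 in the authors' value table (7892 higher, 3064 lower), and 658 to 7121 with an array left out. Median centring gave 4808 (3038 higher, 1770 lower) and moved the all-gene median to 0.11, and the value table to 0.16. Of the 10 genes, 6 were called, 3 under median centring, 0 to 6 with an array left out, and 5 to 7 otherwise. In the pathway and marker lists 29 genes were called, against 48 without background correction (20 higher, 28 lower), 48 in the value table (33 higher, 15 lower), 32 under median centring (20 higher, 12 lower) and 9 to 42 with an array left out. The low ends of these ranges came without array 1 (681 genes, 0 of the 10, 9 in the lists) and without array 2 (658, 0 and 9); the cause was not tested. The directions of the isoform differences held in all 12 alternatives run, which leave out the dye term because no fit enters them. ERF4 was called in all 13. The fit was paired throughout, on ratios of both genotypes of a replicate within 1 array. Over the background settings PRX52 lay between -3.66 and -0.97, BGLU45 between -3.06 and -1.31 and 4CL2 between -1.05 and -0.64; without array 4 they were at -0.75, -0.98 and -0.42.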
